A study of Clio pyramidata with 8 samples.

Results

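A group of 200 transcripts that rose and fell together from animal to animal was described in adult Clio pyramidata, a shelled swimming sea snail of the open ocean (a thecosome pteropod). The members were chosen by their likeness to 1 reference transcript, GAWL01005480. Of 27393 listed transcripts, 8331 averaged at least 5 FPKM across the animals (FPKM, a read fragment measure corrected for how long a transcript is and how large its library was). The 100 of these with the largest minimum were left out, which kept 8231. The members are the 200 with the largest Pearson r with GAWL01005480 on the scale of log2(FPKM + 1), the reference included. The measured values of all 8 animals thus chose the members, so their shared profile is given here as a description and without a test.

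The series asked how the transcriptome responds to a short rise in CO2. Animals A, B, C and D were held in water bubbled with a mixture of 800 ppm CO2, and animals E, F, G and H in water bubbled with ambient air at about 380 ppm. All 8 were wild-caught adults held singly at both levels in filtered seawater with streptomycin and ampicillin for 9 to 11 h after at least 8 h of acclimation at 15 °C. Each was taken out of its shell and extracted whole, and each gave 1 library. The labels name 2 extraction reagents without saying which animal had which. The p-values therefore measure the spread between separate animals together with any technical spread.

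The body of such an animal holds the wings used for swimming, the mantle that secretes the shell, a digestive gland and a gonad, and thecosome pteropods are hermaphrodites that mature as males before females. RNA of the whole body mixes all of these organs. Transcripts made in the same organ or in the same state of the body tend to vary together between individuals, which is why groups of correlated transcripts are described as modules. In such a library, fewer cells of a type and less RNA per cell cannot be told apart. No source used here pairs the identifiers with gene names or sequences, so no marker of an organ could be read and the members are given by identifier.

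The reference transcript ranged from among the most abundant RNAs of an animal to a trace. At 800 ppm, GAWL01005480 stood at 4719 FPKM in A, 4058 in C, 2912 in B and 6.71 in D. At 380 ppm it stood at 15145 FPKM in H, 65.9 in E, 5.31 in G and 3.33 in F. It was thus high in A, B, C and H, very low in D, F and G, and between these in E, and both CO2 levels held high and low animals. In H it was second in rank among all listed transcripts, and it ranked 14 in C, 17 in A and 23 in B. Its rank was 984 in E, 4931 in D, 7678 in G and 10034 in F. Relative to H, its level was 31.2% in A, 26.8% in C, 19.2% in B and 0.435% in E, and it was 0.0443% in D, 0.0351% in G and 0.0220% in F.

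The 5 members most like the reference divided the animals as it did. GAWL01011738 (r = 0.996) stood at 1121 FPKM in H, 261 in A, 169 in B, 168 in C, 10.04 in E, 0.73 in D, 0.39 in G and 0.17 in F. GAWL01024758 (r = 0.995) stood at 941 FPKM in H, 324 in A, 250.3 in B, 224 in C, 16.6 in E, 1.10 in D, 0.09 in G and 0.21 in F. In both, the 4 high animals lay at least 10 times above E, and E lay above D, F and G. GAWL01023626 (r = 0.994) stood at 1024 FPKM in H, 257 in A, 292 in B, 186 in C, 8.02 in E, 0.35 in D, 1.39 in G and 0.13 in F. GAWL01019490 (r = 0.992) stood at 819 FPKM in H, 339 in A, 323 in B, 413 in C, 29.3 in E, 0.95 in D, 0.78 in G and 0.24 in F. The order among A, B and C differed between these transcripts, while H was highest in each. GAWL01035312 (r = 0.993) divided the animals in the same way over a smaller span, at 104 FPKM in H, 86.5 in A, 45.9 in B, 41.6 in C, 6.11 in E, 2.54 in D, 2.05 in G and 1.32 in F.

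**Figure D1:**
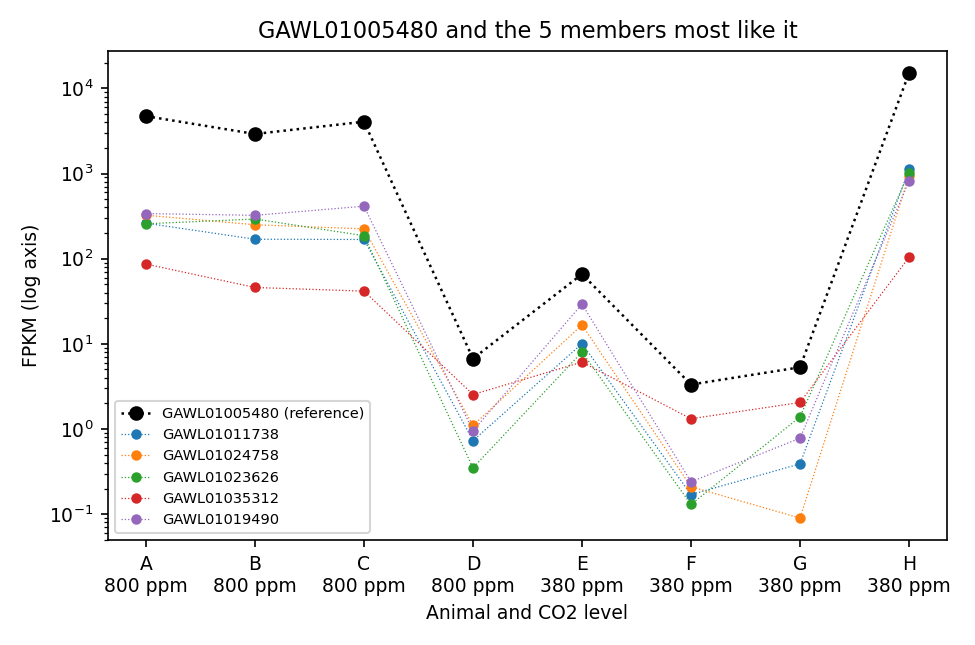
FPKM on a log axis (y) of GAWL01005480, in black, and of the 5 members with the largest r, in colour, in each of the 8 animals (x), 1 point per animal; the dotted lines only join the values of 1 transcript. Every transcript is high in A, B, C and H, lowest in D, F and G, and between these in E.

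Across the whole module the same animals were high and low. The median member stood at 69.5 FPKM in A, 49.6 in C, 40.2 in B and 0.26 in D at 800 ppm, and at 307 in H, 4.49 in E, 0.675 in G and 0.175 in F at 380 ppm. The other 8031 kept transcripts had a median between 7.68 FPKM (D) and 12.2 FPKM (C) in every animal. Their narrower span is no separate result, since members were chosen to share 1 profile and the others were not. In 193 of the 200 members the 4 highest animals were A, B, C and H, and 622 of the 8231 kept transcripts had that order. In 163 members the 3 lowest animals were D, F and G, and 493 of the 8231 kept transcripts had that order. H was the highest animal in 188 members, A in 6 and C in 6. F was the lowest in 97 members, D in 77, G in 25 and E in 1.

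Counted by level, 190 of the 200 members were on in all of A, B, C and H, and 111 were off in all of D, F and G. A member was taken as on at 5 FPKM or more and as off under 1 FPKM. On members numbered 200 in H, 198 in A, 198 in C and 194 in B, with 0 off in each of these animals. In D 5 were on and 164 off, in F 2 were on and 176 off, and in G 24 were on and 118 off. E was mixed, with 97 on, 66 between the limits and 37 off. The commonest pattern, in 92 members, was on in A, B, C and H alone, followed by on in these and E, in 73 members, and on in these, E and G, in 19. All of A, B, C and H were on and all of D, F and G off in 101 members and in 30 further kept transcripts. The reference itself counts as on in D and G at this fixed limit, because its trace there still exceeds 5 FPKM.

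**Figure D2:**
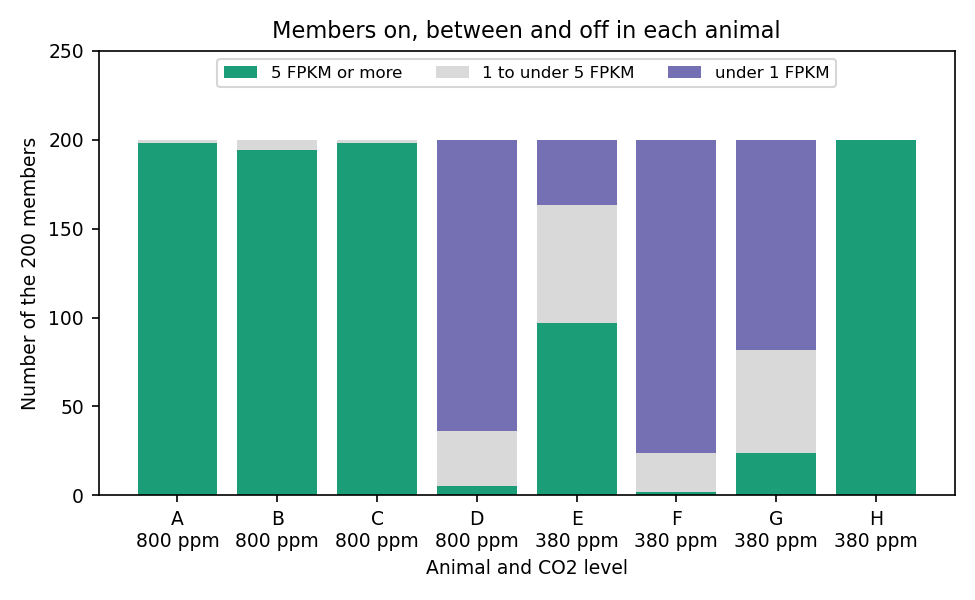
Number of the 200 members (y) at 5 FPKM or more, from 1 to under 5 FPKM, and under 1 FPKM in each animal (x), as stacked bars. A, B, C and H hold between 194 and 200 on members, D, F and G between 2 and 24, and E 97.

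Most members differed between the highest and the lowest animal by a factor of more than 100. The fold range (highest FPKM + 1 over lowest FPKM + 1) had a median of 268 over the members, with quartiles of 81.4 and 634. It was at least 100 in 142 members (71.0%) and in 439 (5.47%) of the other kept transcripts, whose median was 7.42. With 1 added to each value, a transcript of low level cannot reach a large fold range. Members were the more abundant, with a median mean of 56.3 FPKM against 12.6 FPKM in the other kept transcripts. The shares are thus not compared at a like level. In 197 members H lay at least 10 times above the highest of D, F and G, and in 168 it lay at least 100 times above it. The widest range, 5286-fold, belonged to GAWL01028675, which stood at 13426 FPKM in H, 1689 in A, 1312 in B, 915 in C, 238 in E, 5.18 in D, 2.54 in G and 1.54 in F. GAWL01017318 followed at 4614-fold, then the reference at 3498-fold, GAWL01018919 at 2117-fold and GAWL01012609 at 1987-fold. The first 4 of these 5 were also among the 5 members of highest mean, together with GAWL01021195 at a mean of 1059 FPKM. FPKM are scaled to length, but no source used here gives the quantifier or the assembly. How well levels compare between these transcripts was therefore not tested.

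GAWL01012168 (r = 0.917) followed the profile with small changes, and r does not depend on the size of a change. Its range, 2.88-fold, was the smallest among the members. It stood at 34.9 FPKM in H, 32.8 in A, 30.9 in B, 35.6 in C, 20.9 in E, 22.4 in D, 13.0 in G and 11.7 in F, and thus was on in every animal. GAWL01019723 had the next smallest range, 17.1-fold, from 0 FPKM in D and 0.04 in F to 16.1 in C. Its highest animal was C, with A at 12.8 FPKM and H at 12.2, so H did not stand above the other high animals there.

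**Figure D3:**
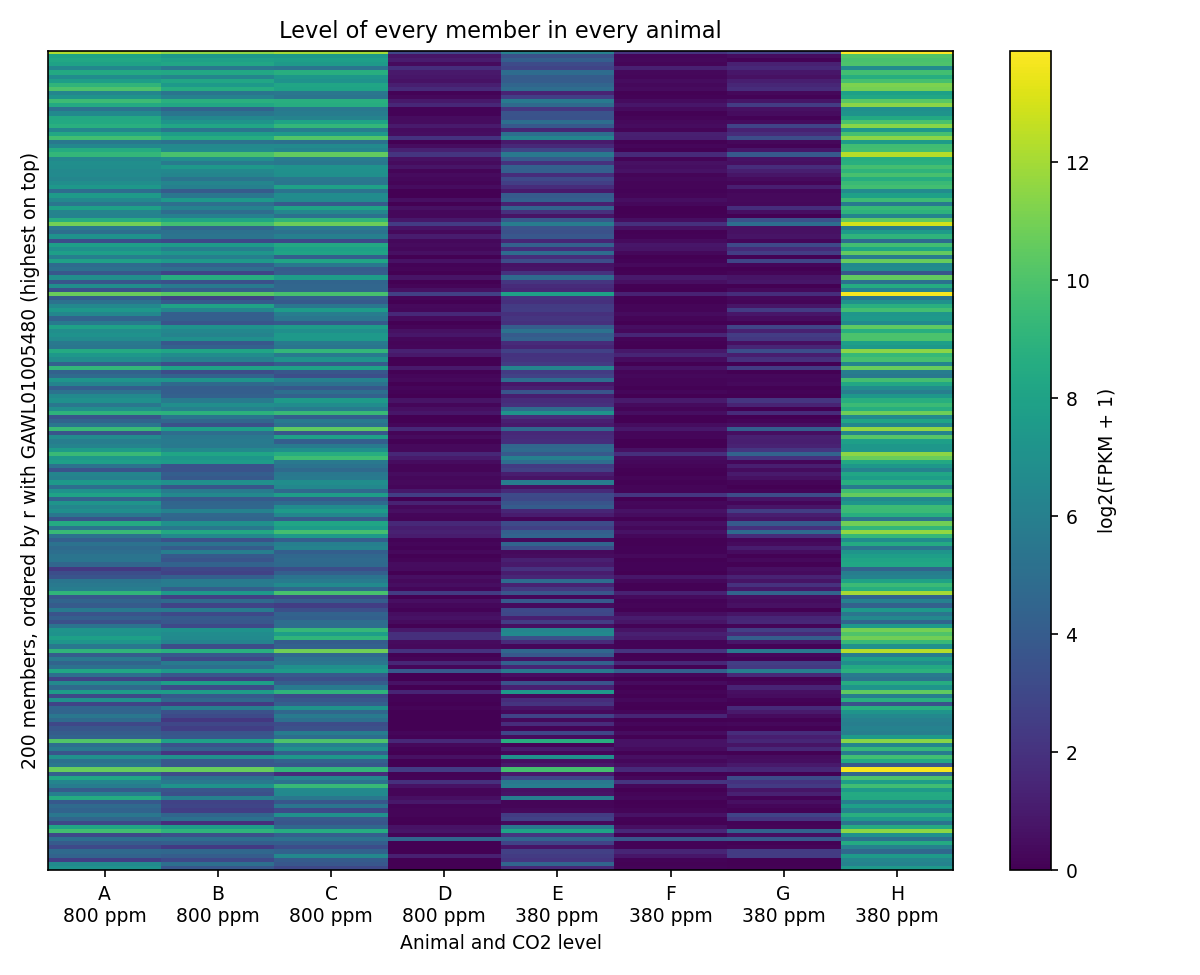
Heat map of log2(FPKM + 1), as colour, of all 200 members (rows, ordered by r with GAWL01005480, the highest on top) in the 8 animals (columns). A, B, C and H are bright over nearly all rows and D, F and G dark, while E ranges from dark to bright.

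The weight of the module in a library changed accordingly. The members together made up 4.03% of summed FPKM in A, 3.81% in C, 3.57% in B and 0.0102% in D at 800 ppm. At 380 ppm they made up 13.8% in H, 0.206% in E, 0.127% in G and 0.0160% in F. With the most abundant transcript of the series, GAWL01040442, taken out of the total, the share in H was 20.9% and that in A 5.57%. It was then 5.555% in C, 4.17% in B, 0.499% in E and 0.147% in G. D stood at 0.0299% and F at 0.0269%, so F and not D was then the lowest. Of the 200 most abundant transcripts of H, 56 were members, against 19 in C, 18 in A, 9 in B, 1 in E and 0 in D, F and G. The reference alone held between 8.83% (H) and 12.8% (A) of the module's summed FPKM in the 4 high animals, and 4.16% in D, 2.94% in F, 1.45% in E and 0.928% in G.

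The low animals were not alike in what remained of the module. Relative to H, the median member stood at 23.4% in A, 20.6% in C and 14.3% in B. It stood at 1.63% in E, 0.252% in G, 0.0632% in D and 0.0454% in F. Other kept transcripts stood at a median between 77.5% (D) and 104% (C) of their level in H. Members listed at 0 numbered 37 in D, 18 in F and 7 in G, and 0 in the other 5 animals. Zeros made up 27.8% of all listed transcripts in D, 22.0% in E, 5.65% in G, 9.15% in F and between 2.57% and 7.98% in A, B, C and H. The absolute depth of the libraries is unknown, since the table holds no read totals, and its part in the zeros of D was not tested. Among the other kept transcripts zeros made up 5.94% in D and 0.797% in E.

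Members kept very different parts of their level in E. Relative to H, the quartiles over the members were 0.507% and 4.88% in E, 0.0828% and 0.589% in G, 0.0294% and 0.148% in D, and 0.0194% and 0.130% in F. Its level lay above those of D, F and G and below those of A, B, C and H in 156 members, and inside or above the range of A, B, C and H in 7. As a share of H, E ran from 0.0517% in GAWL01022023 (0.12 FPKM against 232 FPKM) to 59.9% in GAWL01012168. It was above 10% in 27 members and under 1% in 85. GAWL01017318, the member of second highest mean, stood at 898 FPKM in E, above the 592 FPKM in C, and at 4.58 in D, 2.14 in F and 1.90 in G. GAWL01022023 was singled out after its values were seen. In a principal component analysis of the members, the first component carried 94.1% of the variance and ran from F (-50.3), D (-47.9) and G (-39.0) through E (-13.9) to B (23.8), C (31.4), A (33.5) and H (62.4). The second carried 2.76% and set E, at -16.2, apart from the other 7 animals, which lay between -4.32 and 6.76.

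The order of members by level in one animal was related to that in others. Spearman's rho with H over the 200 members was 0.853 in A, 0.841 in B and 0.841 in C, and it was 0.639 in D, 0.587 in E, 0.553 in G and 0.434 in F. Over the 8031 other kept transcripts it was 0.780 in C, 0.685 in B, 0.638 in A, 0.603 in G, 0.501 in F, 0.442 in E and 0.261 in D. These are correlations across transcripts, which share library, length scaling and assembly and are not independent replicates. D was the animal least like H over other transcripts, whereas over the members F was. The order of members in D, F and G rests on values near the floor, with medians of 0.26, 0.175 and 0.675 FPKM. The comparison with the other transcripts is thus not made at a like level.

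The edge of the module was gradual. The median r of the members was 0.958, against 0.0831 over all kept transcripts, and 228 kept transcripts had an r of at least 0.9. The 3 last members were GAWL01021066 (0.913), GAWL01013367 (0.912) and GAWL01016261 (0.912), and the 3 nearest outside were GAWL01034464 (0.912), GAWL01021264 (0.912) and GAWL01015451 (0.911). GAWL01021264, not a member, had a mean of 1920 FPKM and differed from the reference most in E, where it lay inside the range of the high animals. It stood at 7918 FPKM in H, 1515 in A, 1405 in B, 2587 in C, 1920 in E, 5.40 in D, 7.49 in G and 1.55 in F. Over the 19900 pairs of members the median r was 0.944 and the lowest 0.709. All members had a high r with the same reference, so a high r between them follows largely from the choice. With any 1 animal left out, the r of a member with the reference stayed at or above 0.888.

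Few transcripts ran the opposite way. An r of at most -0.9 was found in 7 kept transcripts and one of at most -0.8 in 53, against 382 with an r of at least 0.8. The most negative, GAWL01007198 (r = -0.971), stood at 3.81 FPKM in H, 4.21 in A, 5.87 in B, 4.97 in C, 6.86 in E, 9.84 in D, 9.84 in G and 11.9 in F. GAWL01006698 (r = -0.948) lay between 3.95 FPKM in H and 24.5 FPKM in F. Their ranges of 2.69-fold and 5.15-fold were small beside those of most members.

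In an animal that the choice had not used, the module still took the side of the reference. Each animal was left out in turn, the 200 transcripts were chosen on the other 7, and the level in the left-out animal was set against the mean of the 7. The median difference on the log2(FPKM + 1) scale was 5.16 in H, 2.55 in A, 2.43 in C and 1.55 in B, where the reference differed by 6.82, 4.90, 4.65 and 4.10. It was -3.60 in F, -3.55 in D, -2.69 in G and -0.95 in E, where the reference differed by -6.64, -5.68, -6.02 and -2.12. Over all kept transcripts the same median lay between -0.44 (D) and 0.21 (C). At least 164 of the 200 transcripts shared the sign of the reference in each animal except E, where 133 did. Over all kept transcripts that share was not counted. Their median also had the sign of the reference in C, D, E, F, G and H, and the opposite sign in A and B. Between 156 (without G) and 187 (without F) of the members were chosen again.

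**Figure D4:**
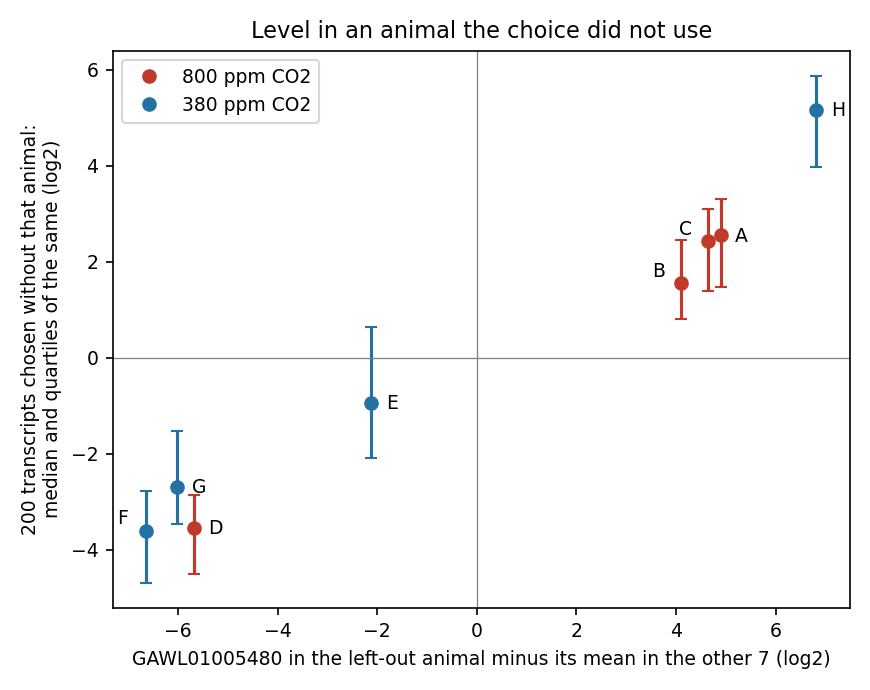
For each animal in turn, the difference of GAWL01005480 in that animal from its mean in the other 7 (x, log2(FPKM + 1)) and the median of the same difference over 200 transcripts chosen without that animal (y); bars are quartiles over the 200, and colours the CO2 levels. A, B, C and H lie in the upper right, and D, E, F and G in the lower left, with E nearest to 0.

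Each CO2 level held animals with the module high and animals with it low. At 800 ppm A, B and C were high and D was low. At 380 ppm H was high, E was between, and F and G were low. GAWL01005480 had a mean of 9.66 ± 4.49 (SD, n = 4) on the log2(FPKM + 1) scale at 800 ppm and of 6.18 ± 5.43 (SD, n = 4) at 380 ppm. The log2 difference of 3.48, higher at 800 ppm, was smaller than the spread within either group (two-sided exact permutation test, p = 0.429, where 4 against 4 animals cannot give less than 0.0286). The limma test gave it an SE of 2.76 and an adjusted p of 0.997. On the plain FPKM scale the direction was the opposite, with means of 2924 ± 2083 (SD, n = 4) for A to D and 3805 ± 7560 (SD, n = 4) for E to H, since H alone exceeded every animal at 800 ppm.

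No member passed the test for a difference between the CO2 levels. With limma on log2(FPKM + 1) and Benjamini-Hochberg adjustment over 19379 transcripts, 0 of the 200 members, all of which were tested, had an adjusted p under 0.05, as had 0.0% of all tested transcripts. At an unadjusted p under 0.05 there were 0 members, beside 1.69% of all tested transcripts called higher at 800 ppm and 2.67% called lower. The groups overlapped in every member, so 0 members lay wholly higher or wholly lower at 800 ppm, beside 0.986% and 2.61% of all tested transcripts. The smallest unadjusted p among the members was 0.133, in GAWL01012800, and the adjusted p ran from 0.997 to 0.9999. Members had wide errors: the median SE of the log2 change was 1.82 over the members and 0.57 over all tested transcripts. That follows largely from the choice, since the members share the profile of a reference that spreads widely within both CO2 levels. Tested transcripts also reached down to a mean of 1 FPKM, so the 2 medians are not compared at a like level.

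All members nevertheless had the same direction on the log scale. The log2 change at 800 ppm was above 0 in 200 of 200 members, from 0.19 to 3.48 with a median of 1.40, beside 43.0% of all tested transcripts and a median of -0.10 over them. It exceeded 1 in 146 members (73.0%) and in 6.18% of all tested transcripts. Because the members were chosen to share 1 profile over the same 8 animals, they repeat a single pattern and are not 200 separate observations. In mean FPKM, 159 of the 200 members were lower at 800 ppm and 41 were higher, while 40.7% of all tested transcripts were higher. The sign of the difference therefore depended on whether 3 moderately high animals (A, B and C) or 1 very high animal (H) carried more weight.

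**Figure D5:**
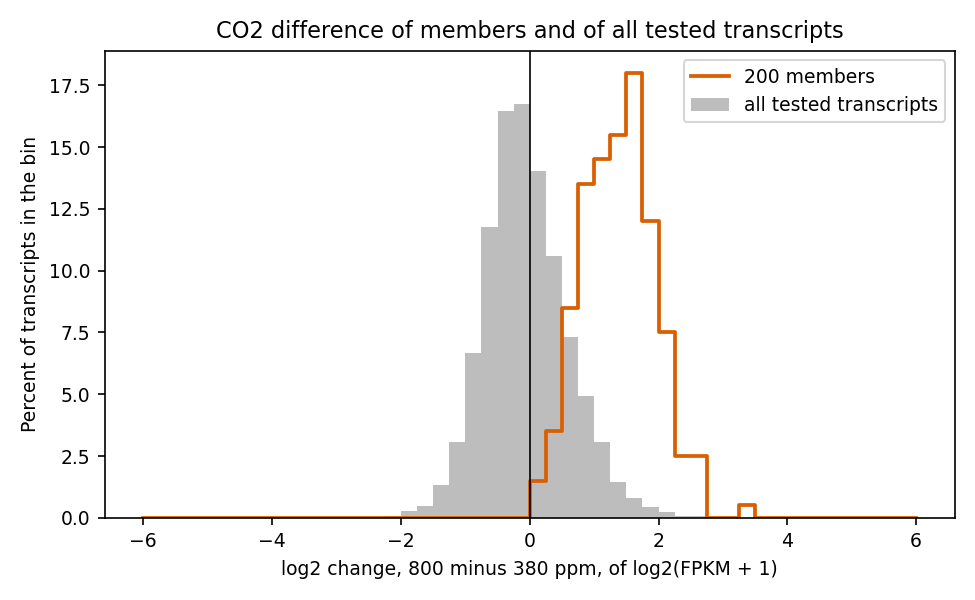
Percent of transcripts (y) by log2 change between 800 and 380 ppm on the log2(FPKM + 1) scale (x, bins of 0.25) for all 19379 tested transcripts, as grey bars, and for the 200 members, as an orange outline. The members lie between 0.19 and 3.48, to the right of most tested transcripts, although none of them passed the test.

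The 2 members with the smallest p show how much single animals decided. GAWL01012800 stood at 74.6 FPKM in H, 0.66 in E, 0.03 in G and 0.04 in F at the ambient level, and at 70.3 in A, 35.9 in C, 64.4 in B and 0.22 in D at the raised one. The estimated log2 change was 2.65 (SE 1.62) with a limma adjusted p of 0.997. GAWL01032746 stood at 13.4 FPKM in H, 0.95 in E, 0.94 in G and 0.50 in F, and at 44.1 in A, 13.3 in C, 12.6 in B and 0 in D, a log2 change of 1.69 (SE 1.13). In both, D lay with the low animals at 380 ppm and H with the high ones at 800 ppm. No member had a lower log2 value at 800 ppm, so none is named for that direction.

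The count at an unadjusted p rested on these 2 animals. Without H, 99 members had an unadjusted limma p under 0.05, all higher at 800 ppm, beside 2.55% of all tested transcripts with higher values there. Without D it was 21 members, beside 4.24%, and without both D and E it was 10, beside 4.01%. In each of these fits 0 members had an adjusted p under 0.05. The members were chosen to share 1 profile, so each count repeats a single pattern. A count above the share beside it is therefore no separate result. The median log2 change of the members was 3.13 without H, 2.71 without D and 2.52 without D and E, and it was 0.48 without F, 0.66 without G and 0.81 without A. The log2 difference of GAWL01005480 was 6.05 without H (two-sided exact permutation test, p = 0.114) and 5.72 without D (exact permutation p = 0.229), where 3 against 4 animals cannot give less than 0.0571. It was 5.68 without D and E (exact permutation p = 0.4), where the smallest possible is 0.1, and 2.13 without F (exact permutation p = 0.686).

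In share of summed FPKM the members made up 2.85% ± 1.91 (SD, n = 4) at the raised and 3.54% ± 6.84 (SD, n = 4) at the ambient level. The difference of -0.681 points turned to 2.74 without H and to 0.267 without D. It was -1.79 without E, -1.82 without G, -1.85 without F, -1.07 without A, and -2.32 with the 100 transcripts of largest minimum out of the total. No test was made of this sum over the members.

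The members were set against a pair of other groups of transcripts that vary between these animals. Of 326 transcripts low in D alone (at least 8-fold below every other animal on the scale of FPKM + 1), 0 were members, which the definition fixes for transcripts that are as low in F or G as in D. The most abundant of those 326, GAWL01022954, had an r of 0.676 with the reference, and over all of them the median r was 0.627. The 200 kept transcripts most like GAWL01040442 held 0 members. GAWL01040442 itself had an r of -0.083 with the reference, which leaves little room for a transcript to follow both closely. It stood at 1035590 FPKM in D and 1292030 in E, and at 61898 in G, so it did not divide the animals as the module did.

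Members were spread over the numbering of the assembly, from number 1886 to 40581. Consecutive numbers were found in 8 pairs of members, such as GAWL01024758 with GAWL01024759 and GAWL01024759 with GAWL01024760, among 2283 consecutive pairs of kept transcripts; these examples were chosen after their values were seen. In 106 further pairs only 1 transcript was a member, and the r of its neighbour with the reference had a median of 0.0573 and a range from -0.749 to 0.889. Whether neighbours in number are pieces of 1 gene is not given in the sources used here, so the number of genes behind the 200 members is not known.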

How the data were processed

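Messenger RNA of 8 whole animals was read as 50 bp pairs. Per the file's own name the deposited values are FPKM that the authors normalized by TMM. Trimmomatic, Bowtie and edgeR are named in the submitters' processing notes; no source used here gives their roles and versions, the quantifier or the assembly. All 8 columns matched 1 animal each by title. Members and tests were chosen with earlier results of these data known.

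The rule was applied to log2(FPKM + 1), and transcripts were named by fixed places (largest and smallest r, mean, fold range and p). FPKM are not counts, so CO2 levels were compared by limma (3.58.1, under R 4.3.3), its variance trended on level, over transcripts averaging 1 FPKM or more, adjusted by Benjamini-Hochberg at 0.05. That scale understates changes of low transcripts. Single values were compared by exact permutation (scipy 1.17.1). The limma step and the rule were tested on simulated data. These had a spread between animals capped well below that of most members, and planted members with little noise. They therefore do not show what limma could find among the members. Pseudocounts, filters, scalings, limma options and left-out animals were tried as alternatives.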

Additional observations from a re-analysis of the deposited data

Results flagged for a closer look

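Within a group of 4 animals a value was singled out where its gap to the nearest other animal was larger, as a share of the group's range, than Dixon's critical value for 4 values. This was applied to 22 quantities in both groups, 44 in all. Chance alone marks about 1 in 20 groups, but the quantities share a profile by choice, so the 17 marks are not separate. The members were chosen for following a reference that is low in D and high in H. Marks on these animals thus largely follow from the choice, and the chance rate does not apply to them. D stood apart as low at 800 ppm on the log2(FPKM + 1) scale in GAWL01005480 (2.95), GAWL01011738 (0.79), GAWL01024758 (1.07), GAWL01023626 (0.43), GAWL01019490 (0.96), GAWL01028675 (2.63), GAWL01018919 (2.45), GAWL01021195 (2.12), GAWL01012609 (1.02) and GAWL01012800 (0.29).

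D also stood apart at 800 ppm in the members' share of summed FPKM (0.0102%), in their median level (0.33 on the log2 scale), and in the numbers of members on (5) and off (164). For members off, A, B and C all stood at 0, so any other number in D would have been marked. At 380 ppm H stood apart as high in GAWL01012800 (6.24) and GAWL01032746 (3.85) on the log2 scale and in the members' share of summed FPKM (13.8%).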

How the results depend on the processing

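The count of members at an adjusted p under 0.05 was 0 in all 17 alternatives to the limma fit, with adjusted p of the members between 0.567 and 0.99998. The count at an unadjusted p under 0.05, 0 in the full fit, became 10 with D and E both removed, 21 without D and 99 without H, and with any single other animal removed it was 0, as it was in the remaining alternatives. These counts repeat 1 profile that the members share by choice. The median log2 change of the members stayed above 0 in all 17. The number with a positive change was 195 with a pseudocount of 5, 197 with array weights and between 165 (without F) and 200 with 1 animal left out. The log2 difference of GAWL01005480 stayed above 0 in 13 alternatives, from 2.13 to 6.05, with exact permutation p from 0.114 to 0.686. Among 17 other named members, 3 changed sign: GAWL01021066 (0.24) was -0.16 with a pseudocount of 5. With 1 animal left out GAWL01021066 ranged from -0.49 to 1.64, GAWL01017318 from -0.13 to 3.92 and GAWL01016261 from -0.048 to 2.86; the cause was not tested. Of the 200 members, 179 were chosen again with a pseudocount of 0.1, 165 with 10, 148 by Spearman's rho, 185 and 191 with a minimum mean of 1 and 10 FPKM, 200 with no transcript left out, 197 after median centring, 147 without D and E and 156 to 187 with 1 animal left out. Members on in D (5) were 19 at a limit of 2 FPKM and 2 at 10, those in G (24) 57 and 12, and those in F (2) 10 at 2 FPKM; members off in E (37) were 20 under 0.5 FPKM. No paired analysis was possible because the letters of the animals pair none of them across the CO2 levels. Absolute depth is unknown, which limits the members near 0 in D, F and G most.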
